A study of Mus musculus with 18 samples.

Results

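The maternal diet was fish oil or control, and the question was which of its effects on fetal brown fat were still present in the adult offspring. The comparison used 12 of the 18 libraries of the series: 3 each of fetal control, fetal fish oil, adult control and adult fish oil. RNA was sequenced from interscapular brown fat of C57BL/6 mice, and no transgene or deletion is named. The fetuses were carried by mothers fed either the control or the fish oil diet, whose make-up is not given in the labels. The adults, 15 weeks old, were offspring of mothers fed those diets through pregnancy and lactation, and both adult groups also had 8 weeks of high fat feeding after weaning. Adult age, the end of maternal feeding and the high fat diet therefore all separate the adult from the fetal groups and cannot be told apart. The make-up by sex, read below from sex-linked genes, also differed between the ages. The labels do not say whether replicates came from separate litters or whether fetal tissue was pooled, so the p-values cover no more than the spread among these particular libraries.

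Brown fat burns fatty acids and glucose to make heat through the uncoupling protein UCP1 in its mitochondria. Its adipocytes also synthesise fatty acids, which are elongated by enzymes such as ELOVL6 and desaturated by stearoyl-CoA desaturase, encoded by Scd1. Polyunsaturated fatty acids of the kind found in fish oil are known to lower the expression of such lipogenic genes in liver and fat through the transcription factors SREBP-1c and ChREBP, and they can activate the nuclear receptors called PPARs.

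For each of 13503 genes a fetal diet effect (fish oil against control), an adult diet effect and the difference between them (adult effect minus fetal effect) were estimated on the log2 scale in a single edgeR quasi-likelihood fit. A gene was called at a Benjamini-Hochberg adjusted p under 0.05. A fetal effect persisted where the adult effect was called in the same direction. It was lost where the difference was called and the adult effect was smaller, and it turned where the difference was called and the adult effect had the opposite sign with an unadjusted p under 0.05. Levels are counts per 1000000 counts of the library (CPM), scaled between libraries by trimmed mean of M values, and are listed in the order of replicates 1, 2 and 3. Summed levels of lists and the levels of Xist, Ddx3y and the red cell genes Hba-a1, Hbb-bs and Alas2 are CPM without that scaling. Genes on 4 skeletal muscle lists were kept apart throughout.

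The libraries held 7889595 to 16263663 counts each, of which the mitochondrial rRNA genes mt-Rnr2 and mt-Rnr1 took 43.35 to 51.81% and 3.7 to 5.64%. The brown adipocyte markers Ucp1, Cidea, Prdm16 and Zic1 were detected in all 12 libraries. The epidermal genes Krt5 and Krt14 were at 0 in 10 libraries each, and the bone gene Ibsp at 0 in all 12. In 4 of the 6 fetal libraries Xist was above 100 CPM together with the Y-linked gene Ddx3y above 10 CPM. These 4 libraries thus held RNA of both sexes. In all 6 adult libraries Ddx3y was above 10 CPM and Xist was at most 1.86 CPM. The part of sex in the results was not tested. A lower level of a gene in bulk tissue can mean fewer cells of a type or less RNA per cell, and these cannot be told apart.

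Few fetal effects were found again in the adults. In the fetal libraries 236 genes were called (1.75% of those tested), 82 higher (0.607%) and 154 lower (1.14%) with fish oil. In the adults 231 were called (1.71%), 172 higher (1.27%) and 59 lower (0.437%), and the difference was called for 186 (1.38%), 108 higher (0.8%) and 78 lower (0.578%). Outside the muscle lists 232 genes had a fetal effect, and of these 4 persisted, 46 were lost and 34 turned. For the other 148 neither the adult effect nor the difference was called, so that their fate was not resolved. The adult sign matched the fetal sign for 110 of the 232 (47.4%), against 48.7% of all 13373 genes outside the muscle lists.

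The fetal-called genes were then followed by direction. Of the 78 that were higher with fish oil in the fetus, 22 (28.2%) were also above control in the adult. At an unadjusted p under 0.05, which 13.3% of all genes passed in the fetus and 12.2% in the adult, none of the 78 had an adult effect of the same sign, while 20 had one of the opposite sign. Of the 154 that were lower in the fetus, 88 (57.1%) were also lower in the adult, with 20 genes of the same sign and 14 of the opposite sign at that p. Over all genes outside the muscle lists such adult effects were split evenly between the fetal sign (772 genes) and the opposite one (768). Across the 13373 genes outside the muscle lists, fetal and adult effects had a Pearson correlation of 0.12 and a Spearman correlation of 0 (0.21 and 0.02 with the muscle lists in); genes are not independent replicates.

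**Figure D1:**
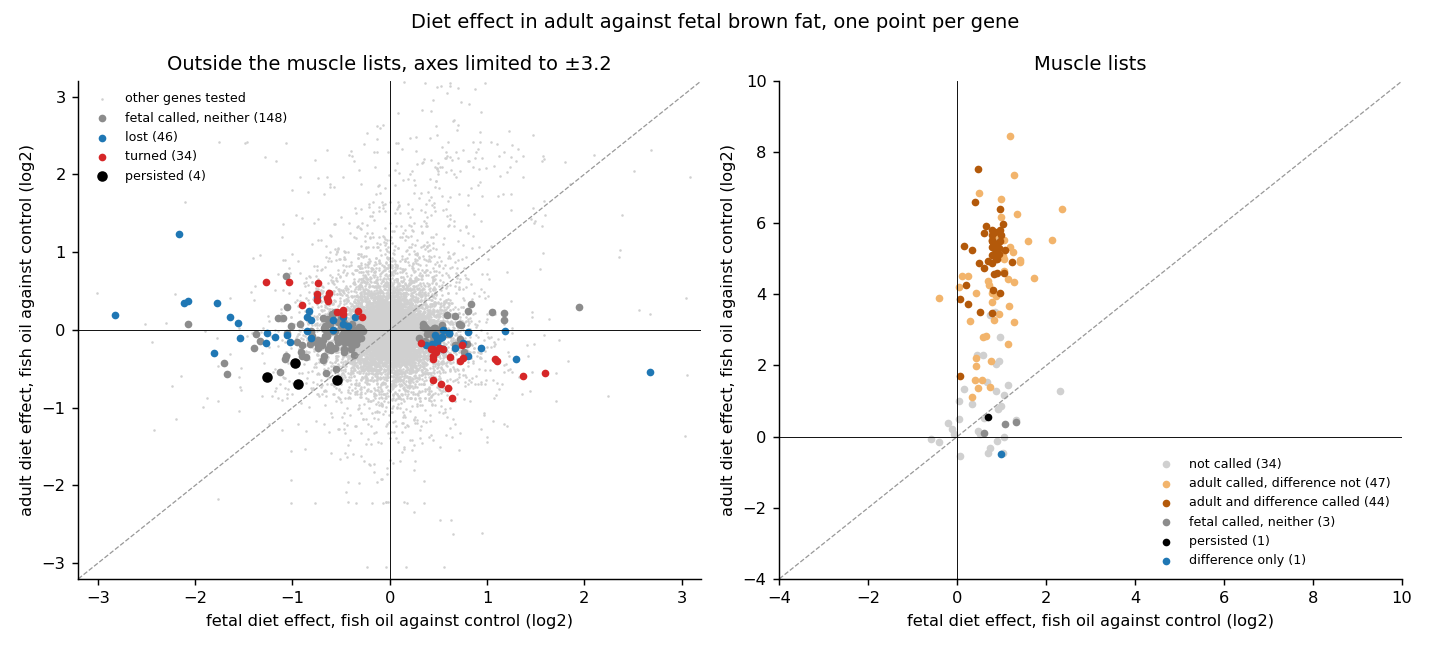
Adult diet effect against fetal diet effect (log2, fish oil against control), one point per gene, outside the muscle lists on the left and in them on the right. On the left the 4 persisting genes lie below and left of 0 while the 46 lost genes lie near the horizontal axis; on the right most points lie above 2 on the adult axis and between 0 and 2 on the fetal axis.

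Scd1, Elovl6, G6pdx and Fgfr2 were the 4 genes that persisted outside the muscle lists, and all 4 were lower with fish oil at both ages. In none of the 4 did the diet groups overlap at either age, as was so for 22.5% of all genes tested in the fetus and 14.5% in the adult. Of these 4, 3 belong to fatty acid synthesis and its supply of reducing power. Scd1, which introduces a double bond into saturated fatty acids, was at 1330, 1200 and 1110 CPM in fetal control and at 565, 417 and 546 CPM in fetal fish oil libraries. In the adults it was at 62500, 60200 and 66400 CPM in control and 45900, 39700 and 39200 CPM in fish oil libraries. Every fish oil library lay below every control library of its age, although the adult level was far above the fetal one under either diet. Scd1 fell by 1.26 ± 0.106 on the log2 scale in the fetus (standard error, edgeR adjusted p = 4.62e-05) and by 0.60 ± 0.104 in the adult (adjusted p = 0.00563). The adult effect was smaller than the fetal effect (difference 0.65 ± 0.147, adjusted p = 0.0427), but that difference was called in 2 of 12 fits that left out a library, with an adjusted p of up to 0.129 without fetal control replicate 1.

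Elovl6, the elongase that makes stearate from palmitate, was at 307, 271 and 259 CPM in fetal control and 157, 145 and 136 CPM in fetal fish oil libraries. The adult values were 1030, 889 and 942 CPM in control and 516, 804 and 451 CPM in fish oil libraries. The groups did not overlap at either age, but adult fish oil replicate 2 lay much nearer to control than the other two. Elovl6 fell by 0.94 ± 0.159 in the fetus (edgeR adjusted p = 0.00815) and by 0.69 ± 0.158 in the adult (adjusted p = 0.0392), with a difference of 0.24 (95% confidence interval -0.23 to 0.72, adjusted p = 0.693).

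G6pdx encodes glucose-6-phosphate dehydrogenase, which opens the pentose phosphate pathway and supplies NADPH. It was at 22.2, 21.5 and 18 CPM in fetal control and 10.1, 10.4 and 11.1 CPM in fetal fish oil libraries. In the adult control libraries it was at 107, 92.7 and 107 CPM, and in the adult fish oil libraries at 75.7, 83.2 and 69.8 CPM. The diet groups overlapped at neither age. G6pdx fell by 0.97 ± 0.105 in the fetus (edgeR adjusted p = 0.000522) and by 0.42 ± 0.0934 in the adult (adjusted p = 0.0314). The difference was 0.55 (95% confidence interval 0.25 to 0.85) and was not called (adjusted p = 0.07).

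Fgfr2, a receptor for fibroblast growth factors, was the persisting gene that is no lipogenic enzyme. Its levels were 39.2, 43.3 and 38.2 CPM in fetal control and 23.4, 31.4 and 28.4 CPM in fetal fish oil libraries. The adult levels were 13.6, 14.1 and 14 CPM in control and 8.86, 10.1 and 7.95 CPM with fish oil, again without overlap. Fgfr2 fell by 0.54 ± 0.11 in the fetus (edgeR adjusted p = 0.0235) and by 0.64 ± 0.136 in the adult (adjusted p = 0.0246), and the difference was -0.10 (95% confidence interval -0.47 to 0.27, adjusted p = 0.867).

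The 4 genes were not equally stable when single libraries were left out. In the 12 such fits Scd1 was called at both ages in 12, G6pdx in 5, Fgfr2 in 2 (without fetal fish oil replicate 2 or adult fish oil replicate 2) and Elovl6 in 1. The fetal fall of Fgfr2 was called in 7 of the 12 fits and its adult fall in 6, and the fetal fall of Elovl6 was called in 10. When the adult libraries were fitted alone, the adult fall of Scd1 kept its call (edgeR adjusted p = 0.0341). Those of Elovl6, G6pdx and Fgfr2 did not (0.325, 0.214 and 0.177). With the mean of the contractile list, 1 of the 4 muscle lists, as a covariate, none of the 4 genes kept its adult call (edgeR adjusted p = 0.504 for Scd1, 0.529 for Elovl6, 0.471 for G6pdx and 0.71 for Fgfr2). Their adult effects were not smaller with the covariate, at -0.85, -1.25, -0.76 and -0.85 in the same order. The 1 gene that persisted in that fit was Fasn. The count of persisting genes ran from 1 (without fetal control replicate 1, fetal control replicate 2 or adult control replicate 1) to 11 without adult fish oil replicate 2 and 12 without adult fish oil replicate 3. The 11 included all 4 genes above. Of these 4 the 12 included only Scd1, and among the others were Fasn, Acaca, Dmd, Myo18b and Tpm1.

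**Figure D2:**
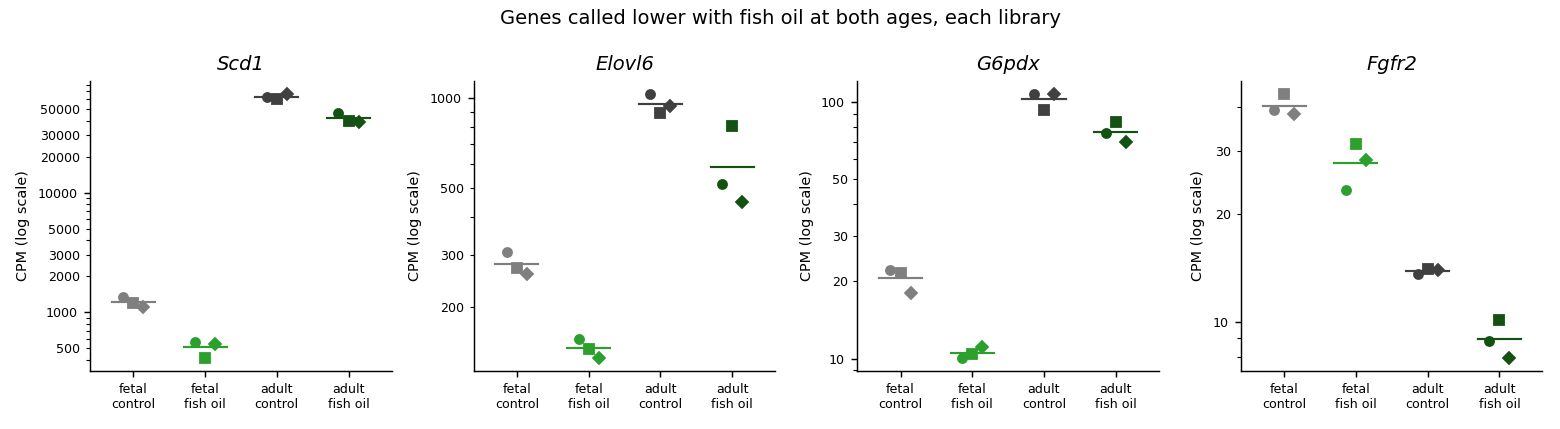
Level in CPM (log axis) of Scd1, Elovl6, G6pdx and Fgfr2 in each of the 12 libraries; circles, squares and diamonds are replicates 1, 2 and 3 and the bar is the group mean. In each panel the 3 fish oil libraries lie below the 3 control libraries of the same age.

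Below the threshold for persistence lay 16 further genes, chosen after their values were seen, that fell in the fetus and had a negative adult effect at an unadjusted p under 0.05. Zbtb7a, a transcriptional repressor, and Ccdc71l lay nearest to it. Zbtb7a fell by 0.37 in the fetus with an adult effect of -0.32 (edgeR adjusted p = 0.068), and Ccdc71l fell by 0.55 with an adult effect of -0.50 (adjusted p = 0.0563). Grk3, a kinase of G protein-coupled receptors, Aspg, an asparaginase, and Nampt, which makes a precursor of NAD, fell by 1.08, 1.67 and 0.56 in the fetus. Their adult effects were -0.37, -0.57 and -0.23, and none of the 3 differences was called. Gpd2, the mitochondrial glycerol phosphate dehydrogenase, gave -0.63 and -0.25, and the glucocorticoid-induced gene Tsc22d3 -0.69 and -0.39.

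The fatty acid synthesis genes were mostly lower in fish oil libraries at both ages, with 3 members called at both. Of 32 tested genes 5 fell in the fetus (Scd1, Elovl6, G6pdx, the elongase gene Elovl5 and Mlxipl, which encodes ChREBP) and none rose. In the adult 11 fell and none rose: Scd1, Elovl6 and G6pdx, then Fasn, Acly, Aacs, Acacb, Acss2, Pgd, Tkt and Pnpla3. The median log2 effect of the 32 genes was -0.16 in the fetus and -0.48 in the adult, where the medians of all genes tested were 0 and -0.02. By sign 24 of the 32 were lower in the fetus and 28 in the adult, against 6693 and 7286 of all 13503 genes tested. For this list and those below, the shares of all genes called were 1.14% lower and 0.607% higher in the fetus. In the adult they were 0.437% lower and 1.27% higher.

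Fasn, the multienzyme that builds palmitate, shows the adult side of the list. It was at 9130, 8110 and 9880 CPM in adult control and 4990, 6780 and 3540 CPM in adult fish oil libraries, without overlap. It fell by 0.82 ± 0.168 in the adult (edgeR adjusted p = 0.0176), whereas the fetal effect of -0.57 ± 0.17 was not called (adjusted p = 0.124) and the difference was -0.26 (adjusted p = 0.702). Acly, which makes cytosolic acetyl-CoA from citrate, fell by 0.95 in the adult (adjusted p = 0.0304) with a fetal effect of -0.08 (adjusted p = 0.925), and the difference was not called either (adjusted p = 0.189). For Mlxipl the reverse held: it fell by 0.68 in the fetus (adjusted p = 0.00364) with an adult effect of -0.33 (adjusted p = 0.153). The 1 list member whose difference was called was Scd1, so a change of the list's effect between the ages rests on no other gene.

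**Figure D3:**
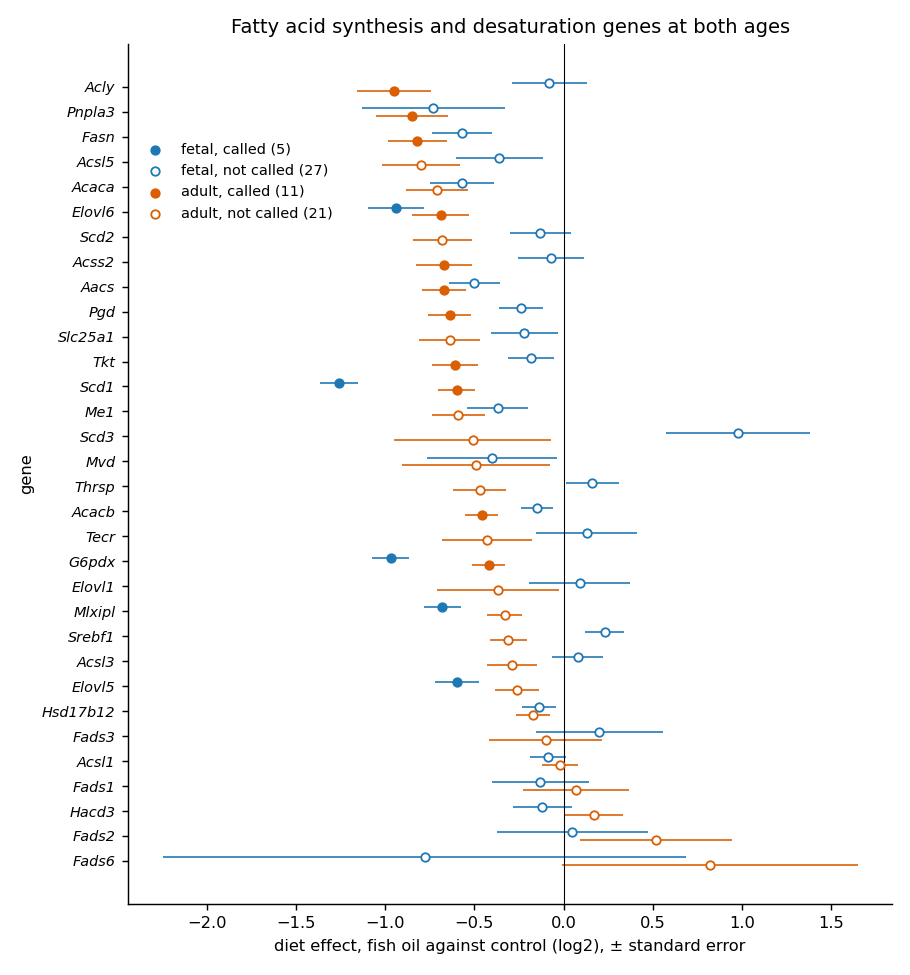
Fetal (blue) and adult (orange) diet effect on the log2 scale with standard errors for the 32 fatty acid synthesis and desaturation genes, filled where the gene was called. The 5 called fetal and 11 called adult values all lie left of 0, and Scd1, Elovl6 and G6pdx are the genes filled at both ages.

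Cholesterol synthesis and uptake genes had no call in the fetus and 1 of 31 tested in the adult. Insig1, which retains the SREBP proteins in the endoplasmic reticulum, was at 115, 94.5 and 105 CPM in adult control and 57.3, 76.4 and 50 CPM in adult fish oil libraries. In the fetus it was at 12.9, 14.1 and 13.6 CPM in control and 15.5, 14.3 and 16.2 CPM in fish oil libraries. The adult fall of 0.78 ± 0.124 (edgeR adjusted p = 0.00284) had no fetal counterpart (0.18 ± 0.138, adjusted p = 0.666), and the difference of -0.96 ± 0.186 was called (adjusted p = 0.0224).

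The genes of oxidative stress defence, metallothioneins and haem handling held fetal effects of each fate. Of 44 tested members 7 fell and 1 rose in the fetus, while 3 fell and none rose in the adult, these being the pentose phosphate genes G6pdx, Pgd and Tkt. Of the 7 that fell in the fetus, 2 were lost (Hmox1 and Srxn1), 1 turned (Slc40a1), 1 persisted (G6pdx) and 3 were not resolved (Mt1, Mt2 and Gclm). Hmox1, which breaks down haem, was at 57.6, 76.5 and 62.5 CPM in fetal control and 15, 20 and 22.7 CPM in fetal fish oil libraries. Its adult levels were 5.3, 6 and 6.2 CPM in control and 8.13, 5.57 and 8.19 CPM with fish oil, low and overlapping. Hmox1 fell by 1.78 ± 0.152 in the fetus (edgeR adjusted p = 4.62e-05), its adult effect was 0.34 (95% confidence interval -0.11 to 0.79), and the difference was 2.11 ± 0.258 (adjusted p = 0.00194).

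Srxn1, which repairs oxidised peroxiredoxins, was at 13.4, 12.1 and 8.94 CPM in fetal control and 3.95, 5.84 and 4.5 CPM in fetal fish oil libraries. The adult libraries held 32.4, 31.9 and 33.7 CPM in control and 29.6, 30.2 and 27.1 CPM with fish oil, which do not overlap but lie close together. Srxn1 fell by 1.27 ± 0.16 in the fetus (edgeR adjusted p = 0.00133) and its adult effect was -0.17 (95% confidence interval -0.48 to 0.13), a difference of 1.09 ± 0.213 (adjusted p = 0.0224). Alas1, the first enzyme of haem synthesis, went the other way in the fetus. It rose by 0.81 ± 0.121 there (edgeR adjusted p = 0.00364), from 105, 131 and 132 CPM to 180, 200 and 263 CPM. In the adults it was at 169, 156 and 155 CPM in control and 156, 155 and 157 CPM with fish oil (adult effect -0.03, difference -0.84 ± 0.171, adjusted p = 0.0275). The summed level of the erythroid list, 21 genes of red cells and their precursors, was 569 to 695 CPM in fetal control and 818 to 1200 CPM in fetal fish oil libraries. The higher sum was not a rise across the list. Its 14 tested members had a median fetal effect of 0.01, with 7 positive and 7 negative. The red cell genes Hba-a1, Hbb-bs and Alas2 had medians of 13.6, 17.5 and 28.1 CPM in fetal control libraries. In fetal fish oil libraries their medians were 14.3, 15.2 and 30 CPM. The part of red cell RNA in these fetal effects was not tested. In the adults the summed level of the erythroid list was 211 to 258 CPM in control and 198 to 241 CPM in fish oil libraries.

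Mt2, a metallothionein that binds zinc, was at 19, 18.5 and 16.3 CPM in fetal control and 5.26, 7.27 and 3.83 CPM in fetal fish oil libraries. Adult levels were 2.34, 3 and 4.09 CPM in control and 1.58, 2.01 and 3.35 CPM with fish oil, so that the adult groups overlapped at a low level. The fetal fall of 1.70 ± 0.225 was called (edgeR adjusted p = 0.00164), but the adult effect of -0.43 had a 95% confidence interval of -1.13 to 0.28 and the difference of 1.27 was not called (adjusted p = 0.151). Neither persistence nor loss of the Mt2 effect was called.

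Promoter sequence is shown for genes of these groups because the results set a persisting gene (G6pdx) beside an unresolved one (Mt2) and a pair of genes whose fetal effect was lost or turned (Pck1 and Klf9, described further on). The stretches are the 250 bases before the annotated start in RefSeq, build GRCm38.p6, which may not be the build of the counts. In G6pdx and Mt2, capitals mark TGACNNNGC, the core of the antioxidant response element bound by NRF2 (the G6pdx match is on the opposite strand). In Pck1 and Klf9, capitals mark TGACGTNA, a form of the cAMP response element (in Pck1 on the opposite strand). On both strands TGACNNNGC was found in 10.2% and TGACGTNA in 2.52% of 32851 such windows, so that the former is common. Of 12 genes looked up, 9 had an entry. Of these 9, TGACNNNGC was present in G6pdx and Mt2 and TGACGTNA in Pck1 and Klf9, and no window held both. Metal response, sterol response, NF-Y and E-box motifs were searched as well and are not marked. Mt2 held 5 matches of the metal response core, which was found in 44.4% of the windows. For Mt2 the bases after the start were not found in an annotated transcript. A match describes these letters and is not a measured binding site. G6pdx lies at chrX:74428881-74429130 on the minus strand, Mt2 at chr8:94172368-94172617, Pck1 at chr2:173152823-173153072 and Klf9 at chr19:23140976-23141225 on the plus strand.
G6pdx: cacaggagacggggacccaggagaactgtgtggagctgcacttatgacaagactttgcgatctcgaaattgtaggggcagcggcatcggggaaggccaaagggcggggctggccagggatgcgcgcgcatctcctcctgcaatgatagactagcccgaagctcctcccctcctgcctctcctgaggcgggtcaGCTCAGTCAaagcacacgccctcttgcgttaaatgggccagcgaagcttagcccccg
Mt2: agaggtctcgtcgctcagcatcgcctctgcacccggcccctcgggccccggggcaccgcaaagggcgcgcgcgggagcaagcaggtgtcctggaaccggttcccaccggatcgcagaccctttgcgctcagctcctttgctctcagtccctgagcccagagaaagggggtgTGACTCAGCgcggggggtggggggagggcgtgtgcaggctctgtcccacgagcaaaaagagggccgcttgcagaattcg
Pck1: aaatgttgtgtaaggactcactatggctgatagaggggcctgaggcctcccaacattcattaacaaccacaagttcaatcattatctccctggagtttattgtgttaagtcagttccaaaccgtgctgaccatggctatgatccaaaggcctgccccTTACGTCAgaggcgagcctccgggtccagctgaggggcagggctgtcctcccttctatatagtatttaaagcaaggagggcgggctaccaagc
Klf9: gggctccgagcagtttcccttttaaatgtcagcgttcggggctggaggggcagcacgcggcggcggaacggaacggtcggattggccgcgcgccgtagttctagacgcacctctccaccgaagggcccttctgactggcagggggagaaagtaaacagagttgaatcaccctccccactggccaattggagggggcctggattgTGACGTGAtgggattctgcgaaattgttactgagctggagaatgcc

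Genes of glyceride synthesis and fat storage included fetal effects that were lost and 1 that turned. Pck1, the key enzyme of glyceroneogenesis, was at 805, 1030 and 974 CPM in fetal control and 2280, 1850 and 2290 CPM in fetal fish oil libraries. In the adults it was at 2890, 2800 and 2840 CPM in control and 2500, 2720 and 3180 CPM with fish oil. The fetal fish oil libraries thus lay between the fetal and the adult control libraries, and the adult groups overlapped. Pck1 rose by 1.19 ± 0.109 in the fetus (edgeR adjusted p = 7.57e-05), the adult effect was -0.02 (95% confidence interval -0.25 to 0.21), and the difference was -1.21 ± 0.152 (adjusted p = 0.00223).

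Among the PPAR target genes, 34 tested, 3 rose and 2 fell in the fetus and none was called in the adult (medians 0 and 0.01). The 3 that rose were Pck1, Plin1 and Angptl4, and all 3 were lost. When single libraries were left out the difference of Pck1 was called in 12 of 12 fits, but that of Plin1 in 3 (edgeR adjusted p up to 0.101 without fetal fish oil replicate 3) and that of Angptl4 in 1 (up to 0.123 without fetal control replicate 1). Plin1, which coats the lipid droplet, rose by 0.54 ± 0.0964 in the fetus (edgeR adjusted p = 0.0115), from 188, 195 and 150 CPM to 273, 227 and 272 CPM. Its adult effect was -0.09 ± 0.0954, from 1010, 1010 and 981 CPM to 898, 974 and 951 CPM. Angptl4, an inhibitor of lipoprotein lipase, rose by 0.61 ± 0.102 in the fetus (adjusted p = 0.00748), with an adult effect of -0.04 ± 0.104. The 2 that fell were Ucp1 and Gk. Slc25a42, a mitochondrial carrier of coenzyme A and a member of the fatty acid oxidation list, rose by 0.43 in the fetus (adjusted p = 0.0287) and was lost as well (difference -0.61, adjusted p = 0.0315).

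Gk encodes glycerol kinase, which returns glycerol to triglyceride synthesis. It was at 274, 252 and 150 CPM in fetal control and 126, 122 and 80.9 CPM in fetal fish oil libraries. In the adults the order of the diets was the reverse, with 219, 161 and 171 CPM in control and 231, 277 and 337 CPM with fish oil. Gk fell by 1.04 ± 0.216 in the fetus (edgeR adjusted p = 0.0259), the adult effect was 0.62 ± 0.215 (unadjusted p = 0.0121, adjusted p = 0.239), and the difference was 1.65 ± 0.305 (adjusted p = 0.0171). Gk and Pck1, which both feed glycerol phosphate into triglycerides, thus had fetal effects of opposite sign. Agpat2, an acyltransferase of the same list, fell by 1.06 in the fetus (adjusted p = 0.00739) with an adult effect of -0.04, and its difference of 1.02 missed the threshold (adjusted p = 0.0505).

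Thermogenic and brown adipocyte genes had a median effect of -0.01 in the fetus and -0.03 in the adult over 44 tested members. In the fetus Nat8l rose and Ucp1, Gk and Cebpb fell. In the adult Acot11 and Sirt3 fell, and no member was called at both ages. Of 8 mitochondrially encoded genes tested, mt-Nd1, mt-Nd2 and mt-Nd4, all subunits of complex I, fell by 0.43, 0.49 and 0.38 in the fetus, none was called in the adult, and no difference was called. Ucp1 was at 2600, 2390 and 1870 CPM in fetal control and 1490, 1390 and 1030 CPM in fetal fish oil libraries. The adult values were 3760, 3440 and 3190 CPM in control and 2960, 3760 and 3490 CPM with fish oil, which overlapped. Ucp1 fell by 0.81 ± 0.14 in the fetus (edgeR adjusted p = 0.00915), its adult effect was -0.03 (95% confidence interval -0.32 to 0.27), and the difference of 0.78 ± 0.198 was not called (adjusted p = 0.0678). Of the other thermogenic genes always given, none was called in any comparison: Cidea, Dio2, Prdm16, Ppargc1a and Elovl3. Ffar4, a receptor for n-3 fatty acids that was also always given, was not called either. The largest of these differences was 1.86 ± 0.485 for Dio2 (adjusted p = 0.0757).

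Of 24 tested genes induced by glucocorticoids, 7 fell and 1 rose in the fetus and 1 fell and 1 rose in the adult. The list's median was -0.49 in the fetus, with 22 members negative, and -0.06 in the adult, with 16 negative. Of all 13503 genes tested, 6693 were negative in the fetus and 7286 in the adult. In the fetus Rasd1, Foxo1, Klf9, Mt1, Mt2, Tsc22d3 and Arrdc2 fell and Angptl4 rose, and in the adult Dusp1 rose and Per1 fell. Foxo1, a transcription factor restrained by insulin, was at 135, 135 and 138 CPM in fetal control and 58.9, 75.9 and 66.2 CPM in fetal fish oil libraries. Its adult levels were 45.3, 54.2 and 53.6 CPM in control and 55.3, 36.8 and 44.1 CPM with fish oil, which overlapped. Foxo1 fell by 1.02 ± 0.124 in the fetus (edgeR adjusted p = 0.00133), its adult effect was -0.16 (95% confidence interval -0.44 to 0.12), and the difference was 0.85 ± 0.18 (adjusted p = 0.033). In 12 fits that left out a library, this difference was called in 3.

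Klf9, a zinc finger transcription factor, turned. It was at 305, 287 and 312 CPM in fetal control and 152, 212 and 175 CPM in fetal fish oil libraries. The adult values were 90.3, 97.3 and 99.1 CPM in control and 126, 118 and 127 CPM with fish oil, without overlap and in the reverse order. Klf9 fell by 0.75 ± 0.0994 in the fetus (edgeR adjusted p = 0.00165), the adult effect was 0.38 ± 0.102 (unadjusted p = 0.0023, adjusted p = 0.101) and the difference was 1.12 ± 0.142 (adjusted p = 0.00229). Rasd1, a small G protein, was lost: it fell by 1.81 ± 0.239 in the fetus and had an adult effect of -0.30 ± 0.224 (difference 1.51 ± 0.328, adjusted p = 0.0387). That difference was called in 1 of 12 fits that left out a library. Dusp1, a phosphatase of MAP kinases, differed in that the effect was adult: it rose by 0.98 ± 0.127 there (adjusted p = 0.000693), from 20.7, 17.4 and 16.2 CPM to 37.5, 32.5 and 37.4 CPM. The fetal effect on Dusp1 was -0.32 ± 0.144 and the difference 1.30 ± 0.193 (adjusted p = 0.00512).

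Other lost effects were spread over genes of several functions. The 46 lost genes were 26 that had fallen and 20 that had risen in the fetus. Snx10, an endosomal sorting nexin, was at 18.8, 17.5 and 13.1 CPM in fetal control and 5.26, 5.9 and 5.92 CPM in fetal fish oil libraries. In the adults it was at 96.3, 88.3 and 94.8 CPM in control and 77.4, 96.1 and 85 CPM with fish oil, which overlapped. The fetal fall of 1.54 ± 0.132 (edgeR adjusted p = 4.62e-05) stood against an adult effect of -0.11 (95% confidence interval -0.34 to 0.12) and a difference of 1.42 ± 0.171 (adjusted p = 0.00188).

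Slc2a4, the insulin-responsive glucose transporter GLUT4, fell by 0.81 ± 0.0998 in the fetus (edgeR adjusted p = 0.00133), from 52.4, 58.2 and 56.9 CPM to 29.1, 28.6 and 37.9 CPM. Its adult effect was -0.10 ± 0.0978, at 102, 95.6 and 103 CPM in control and 95.4, 88.2 and 97.2 CPM with fish oil, and the difference of 0.71 ± 0.14 was called (adjusted p = 0.0224). Prodh, which begins proline breakdown, fell by 1.56 ± 0.243 in the fetus and had an adult effect of 0.09 ± 0.268 (difference 1.65 ± 0.361, adjusted p = 0.0396). F3, the tissue factor that starts coagulation, fell by 1.26 ± 0.171 and had an adult effect of -0.04 ± 0.165 (difference 1.22 ± 0.238, adjusted p = 0.0224). Hr, a nuclear corepressor, had a fetal effect of -2.07 ± 0.303 (adjusted p = 0.0031) on 2.45, 1.88 and 3.13 CPM in fetal control libraries. Its adult effect was 0.37 ± 0.193 and its difference 2.44 ± 0.361 (adjusted p = 0.00512).

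The remaining lost genes of the naming rule were Cyp2b10, Syt12, Fbxo31, Zfp395 and Strip2. Cyp2b10, a cytochrome P450, fell by 2.17 ± 0.463 in the fetus, and Syt12 and the ubiquitin ligase subunit gene Fbxo31 by 2.11 ± 0.396 and 0.75 ± 0.179. Their differences were 3.40, 2.47 and 1.17 (edgeR adjusted p = 0.04, 0.0224 and 0.0486). Syt12 was low in the fetus, at 0.783, 2.07 and 1.34 CPM in control and 0.368, 0.401 and 0.167 CPM in fish oil libraries, the latter with 16 counts together. For Cyp2b10 the adult effect of 1.23 ± 0.591 came from 1 library, fish oil replicate 3 at 4.22 CPM, while the other adult libraries were between 0.617 and 1.04 CPM. Zfp395 and Strip2 rose by 0.94 ± 0.134 and 1.30 ± 0.246 in the fetus, with differences of -1.17 and -1.69 (adjusted p = 0.015 and 0.0419).

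The 34 genes that turned were 14 that had fallen and 20 that had risen in the fetus. For 5 of them the adult effect was itself called: Tead1, Amn1, Myo5b, Trmt9b and Galnt18. With the adult libraries fitted alone, Myo5b kept its adult call (edgeR adjusted p = 0.0304), while Tead1, Amn1 and Trmt9b did not (0.0536, 0.0808 and 0.148). Tead1, a transcription factor of the Hippo pathway, was at 563, 533 and 719 CPM in fetal control and 363, 396 and 326 CPM in fetal fish oil libraries. It was at 45.1, 42.9 and 41.3 CPM in adult control and 76.9, 59.2 and 60.1 CPM in adult fish oil libraries. The groups did not overlap at either age, and the diets were in the reverse order in the adults. Tead1 fell by 0.74 ± 0.119 in the fetus (edgeR adjusted p = 0.00561) and rose by 0.60 ± 0.128 in the adult (adjusted p = 0.0244), a difference of 1.34 ± 0.175 (adjusted p = 0.00242).

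Amn1 turned the other way. Its levels were 61.8, 56 and 56.6 CPM in fetal control and 80, 84.4 and 87.7 CPM in fetal fish oil libraries, then 24.4, 21.7 and 19.1 CPM in adult control and 14.6, 12.2 and 13.5 CPM in adult fish oil libraries. It rose by 0.53 ± 0.0862 in the fetus (edgeR adjusted p = 0.00593) and fell by 0.69 ± 0.106 in the adult (adjusted p = 0.00204), with a difference of -1.22 ± 0.136 (adjusted p = 0.00174). Myo5b, a motor of recycling endosomes, rose by 0.60 ± 0.126 in the fetus and fell by 0.75 ± 0.119 in the adult (difference -1.35 ± 0.174, adjusted p = 0.00242). Trmt9b, a putative tRNA methyltransferase gene, rose by 0.64 ± 0.138 and fell by 0.88 ± 0.156 (difference -1.52 ± 0.208, adjusted p = 0.00324). For Galnt18, which lies outside the naming rule and is given because its adult effect was called, the effects were 0.45 and -0.64.

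Slc40a1, which encodes the iron exporter ferroportin, was at 34.2, 26.9 and 21.9 CPM in fetal control and 9.1, 14.2 and 11 CPM in fetal fish oil libraries. In the adults it was at 9.5, 10.5 and 13.9 CPM in control and 16.5, 17 and 18.5 CPM with fish oil. Neither pair of groups overlapped, and fish oil was the lower diet in the fetus and the higher one in the adult. Slc40a1 fell by 1.27 ± 0.182 in the fetus (edgeR adjusted p = 0.00273), the adult effect was 0.62 ± 0.2 (unadjusted p = 0.00732, adjusted p = 0.192), and the difference was 1.89 ± 0.27 (adjusted p = 0.00389).

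Setd7, a lysine methyltransferase, was at 51.5, 50.4 and 48.7 CPM in fetal control and 24, 26.9 and 30.2 CPM in fetal fish oil libraries, against 53.8, 61.9 and 61.9 CPM in adult control and 83, 69.3 and 69.5 CPM in adult fish oil libraries. It fell by 0.90 ± 0.0991 in the fetus and had an adult effect of 0.32 ± 0.0984 (adjusted p = 0.161), with a difference of 1.22 ± 0.14 (edgeR adjusted p = 0.00174). Tef, a clock output factor, had effects of -0.48 ± 0.105 and 0.26 ± 0.11 (difference 0.73, adjusted p = 0.0315). It was the 1 member of 22 circadian clock genes whose difference was called. Among the turned genes that had risen in the fetus were Angpt1, a vascular ligand (1.08 then -0.37), Rab30 (1.10 then -0.40), Tenm4 (0.75 then -0.36) and Sox5 (0.72 then -0.40). Their differences were -1.46, -1.50, -1.11 and -1.12 (adjusted p = 0.00188, 0.0226, 0.00324 and 0.0256), and their own adult effects were not called.

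**Figure D4:**
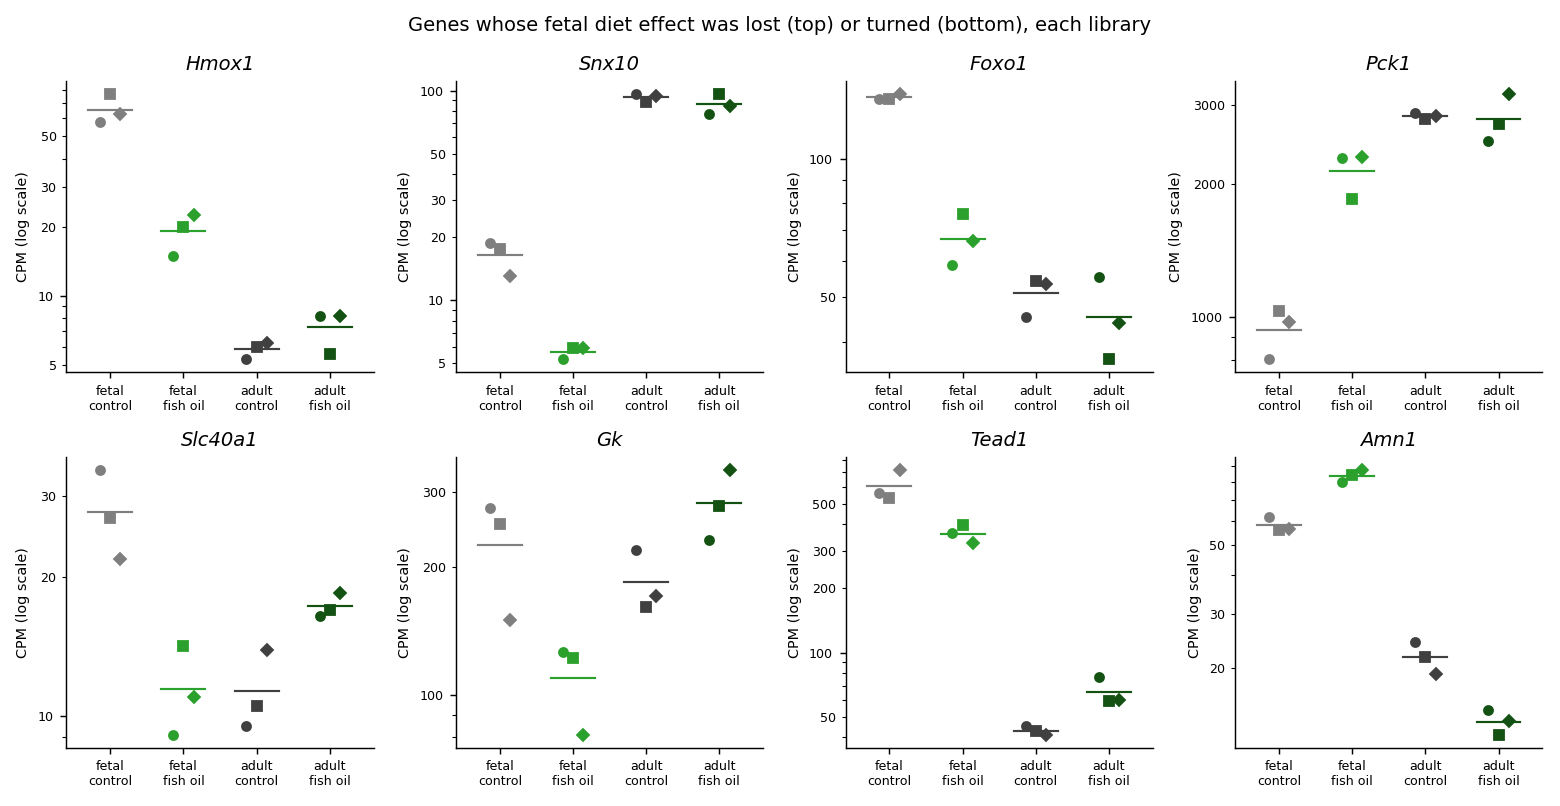
Level in CPM (log axis) of 4 genes whose fetal effect was lost (Hmox1, Snx10, Foxo1 and Pck1, top) and 4 whose effect turned (Slc40a1, Gk, Tead1 and Amn1, bottom) in each of the 12 libraries; circles, squares and diamonds are replicates 1, 2 and 3 and bars are group means. In the top row the fetal groups are apart and the adult groups overlap; in the bottom row the diets are in opposite order at the 2 ages.

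The count of called differences depended on the libraries in the fit and on muscle content. It was 31 without adult control replicate 2, 42 without adult control replicate 1 and 320 without adult fish oil replicate 3, and 24 with all 18 libraries in the fit. The differences of Snx10, Setd7, Hmox1, Pck1, Slc40a1, Klf9, Tead1 and Amn1 were called in all 12 fits that left out a library. They were among 16 of the 55 named differences outside the muscle lists for which this held. With all 18 libraries 7 of the 55 were called, and of the genes just listed only Snx10 and Setd7 (edgeR adjusted p = 0.0208 and 0.00748). Among lost genes, the difference was called in 1 of these 12 fits for Rasd1 and Angptl4 and in 2 for Fbxo31 and Strip2. That of Foxo1, Prodh, Cyp2b10, Slc25a42 and Plin1 was called in 3. With the mean of the contractile muscle list as a covariate 7 differences were called. Of the 55 named differences 2 were called in that fit. Those of Snx10, Setd7, Hmox1, Pck1, Slc40a1, Klf9, Tead1 and Amn1 were not (edgeR adjusted p = 0.0506 to 0.15). Because that mean separates the adult diet groups itself, the diet and the muscle content of the adult libraries cannot be told apart.

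Skeletal muscle genes had positive effects at both ages, called for few in the fetus and for most in the adult. Of 130 tested genes of the 4 lists, 4 rose in the fetus and 92 in the adult, none fell at either age, and the difference was called for 45, 44 of them higher. The median effect was 0.81 in the fetus and 4.09 in the adult. Of the 130, 124 and 121 were positive, against 6810 and 6199 of all 13503 genes tested. The lists' share of the counts other than mitochondrial rRNA was 0.612, 0.395 and 0.583% in fetal control and 0.76, 0.969 and 1.26% in fetal fish oil libraries. It was 0.109, 0.0729 and 0.139% in adult control and 2.94, 2.24 and 0.539% in adult fish oil libraries. Fish oil libraries held more muscle RNA at both ages, and adult fish oil replicate 3 held much less of it than the other two.

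Ryr1, the calcium release channel of muscle, shows the pattern of the 44 genes. It was at 15.9, 9.23 and 13.9 CPM in fetal control and 17.3, 22.9 and 26.8 CPM in fetal fish oil libraries, and at 1.97, 0.577 and 5.67 CPM in adult control and 228, 178 and 41.7 CPM in adult fish oil libraries. The fetal effect was 0.79 ± 0.497 (edgeR adjusted p = 0.558), the adult effect 5.81 ± 0.636 (adjusted p = 0.000566) and the difference 5.01 ± 0.825 (adjusted p = 0.0113). Differences of 3.75 to 4.89 were found for the calcium pump gene Atp2a1, the creatine kinase gene Ckm, the kinase gene Mylk4 and the sarcomere genes Myot, Tnnt3 and Tpm2. Ckmt2, Mylk2 and Lmod2 were also called, but their adult control libraries were at 0 to 0.528, 0 to 0.264 and 0 to 0.132 CPM, so that their fitted values depend on the prior count and are no bound.

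The 4 muscle list genes that rose in the fetus behaved in another way. Myh3, the embryonic myosin heavy chain, rose by 1.31 ± 0.3 in the fetus (edgeR adjusted p = 0.0422), from 41.2, 20.9 and 46.4 CPM to 72.8, 60.9 and 135 CPM. In the adults it was at 1.11, 0.115 and 0.264 CPM in control and 0.971, 0.309 and 0.621 CPM with fish oil, too low to resolve an effect (0.41 ± 1.17). Txlnb, a muscle taxilin, was the 1 gene of the lists that persisted. It rose by 0.70 ± 0.163 in the fetus (adjusted p = 0.0465), from 4.7, 4.21 and 4.47 CPM to 7.21, 6.53 and 8 CPM, and by 0.56 ± 0.123 in the adult (adjusted p = 0.032), from 58.3, 51.6 and 50.3 CPM to 79.4, 94.1 and 62.5 CPM. When single libraries were left out, its fetal rise was called in 2 of 12 fits (edgeR adjusted p up to 0.215 without fetal control replicate 2) and its adult rise in 3 of 12 (up to 0.139 without adult control replicate 2). Unlike Ryr1 it was well expressed in the adult control libraries, as were Fsd2 (27.9 to 29.5 CPM) and Lrrc39 (29.9 to 36.7 CPM), whose fetal rises of 1.08 and 0.60 were not resolved in the adult. With the contractile list mean as covariate the adult effect of Txlnb was -0.04 (edgeR adjusted p = 0.997).

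**Figure D5:**
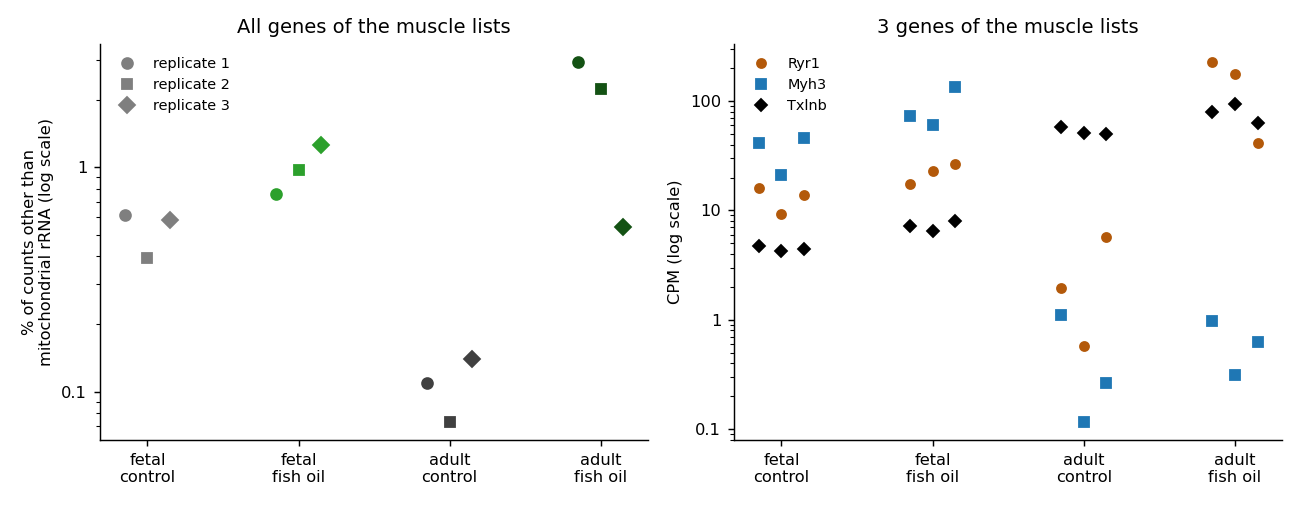
Left, share of the counts other than mitochondrial rRNA that fell on the muscle lists, in each library (log axis); right, CPM of Ryr1, Myh3 and Txlnb in each library (log axis), ordered by replicate within a group. The adult fish oil libraries lie at 0.539 to 2.94% and the adult control libraries at 0.0729 to 0.139%, and Myh3 is high in the fetal libraries alone.

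Outside the muscle lists 28 genes had an adult effect and a difference but no fetal call, 19 of them higher in the adult fish oil libraries. Ttll7, a tubulin glutamylase, was at 7.34, 8.8 and 8.23 CPM in fetal control and 4.68, 5.78 and 4.75 CPM in fetal fish oil libraries, and at 3.45, 2.65 and 3.56 CPM in adult control and 13.1, 11.3 and 8.07 CPM in adult fish oil libraries. Its adult rise was 1.75 ± 0.206 (edgeR adjusted p = 0.000566) and its difference 2.43 ± 0.274 (adjusted p = 0.00174). Fbxo40 and Fbxo32, ubiquitin ligase subunits of muscle, rose by 3.33 ± 0.474 and 1.21 ± 0.22, the spectrin gene Sptb by 4.21 ± 0.602 and the myosin gene Myo18b by 5.20 ± 0.691. Padi2, Usp13, Slc25a12, Tbx15 and Nnmt rose by 5.04, 4.35, 2.48, 1.86 and 1.30. Adult fish oil replicate 3, the library with the least muscle RNA of its group, was the lowest of the 3 for all 92 muscle list genes that rose in the adult and for 14 of the 19 genes here (73.7%), against 30.3% of all genes tested. With the contractile list mean as covariate the adult effects were Ttll7 0.86, Fbxo40 0.71, Fbxo32 0.02, Sptb 0.88, Myo18b 0.98, Padi2 1.65, Usp13 0.84, Slc25a12 0.98, Tbx15 0.30 and Nnmt 1.71, none of them called. Because that mean separates the adult diet groups, the part of muscle RNA in their rise cannot be told apart from diet.

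A further 32 genes outside the muscle lists were called in the difference alone, with neither age called. For 28 of these the fetal effect was positive and the adult effect negative, and for the other 4 the reverse held. Deptor, an inhibitor of mTOR, was at 36.3, 39 and 41.4 CPM in fetal control and 49.3, 49.2 and 53.3 CPM in fetal fish oil libraries, and at 522, 584 and 639 CPM in adult control and 473, 501 and 377 CPM in adult fish oil libraries. The diets did not overlap at either age and were in opposite order (effects 0.38 ± 0.107 and -0.37 ± 0.102, difference -0.75 ± 0.148, edgeR adjusted p = 0.0229). Ntrk3, a neurotrophin receptor, and Dapk1, a death-associated kinase, followed the same order with differences of -0.85 ± 0.174 and -0.87 ± 0.171 (adjusted p = 0.03 and 0.0229). Med12l, Glod4, Tmem260 and Smim19 did so with -0.97, -0.59, -0.63 and -1.38. Ifi27l2a, an interferon-inducible gene, had the opposite order, with effects of -1.06 ± 0.281 and 0.70 ± 0.181 and a difference of 1.76 ± 0.335 (adjusted p = 0.0209), as did Atp11a (0.74) and Ndrg2 (0.64).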

How the data were processed

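RNA from mouse interscapular brown fat was extracted with Trizol and made into TruSeq libraries, per the labels' protocols. The submitters' processing notes name Bowtie 0.12.2, STAR and the mm8 and mm9 builds; which annotation was counted is not given in those notes or the labels. The authors deposited raw counts per Ensembl gene (55416 genes) in 3 columns, and the forward column was used, whose total was 98.96 to 99.55% of the unstranded total. Symbols were found by Ensembl identifier for 52083 genes with 99.97% of all counts. Each library kept 3869067 to 7460408 counts outside mitochondrial rRNA, and 3 counts correspond to 0.184 to 0.38 CPM; such limits cover counting error only.

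The 12 libraries were fitted as 4 groups by the quasi-likelihood method of edgeR 4.0.16, run in R 4.3.3 (filterByExpr, trimmed mean of M values, Benjamini-Hochberg over 13503 genes, no fold limit). Errors after log2 effects are standard errors. The fit and its call of fates were tested on simulated data. DESeq2 1.42.0 and limma 3.58.1 were among the alternatives, with other scaling, filters, columns, library sets, covariates and single libraries left out; leaving the muscle lists out before scaling was chosen after seeing the data. The members and the 31 gene lists were chosen with earlier results of these data known. Outside the muscle lists the naming rule took persisting genes, then the 12 turned, 12 lost and 10 adult genes with the largest values, 10 other differences, up to 4 members of each list and 15 genes always given, at a mean of at least 5 CPM in a group and without predicted genes. In the muscle lists it took 10 differences and 6 fetal genes. Other cell type lists were counted. Adult fish oil library 2 carries number 3 in its source name, and was numbered 2 as in its title.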

Additional observations from a re-analysis of the deposited data

Results flagged for a closer look

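The diet effect differed between adult and fetal libraries for 186 genes by the edgeR test of the difference itself, and 65 of the named genes were among them. All values that follow are differences of log2 diet effects, adult minus fetal. Among lost effects that were falls in the fetus they were Slc2a4 0.71, Foxo1 0.85, Srxn1 1.09, Fbxo31 1.17, F3 1.22, Snx10 1.42, Rasd1 1.51, Prodh 1.65, Hmox1 2.11, Hr 2.44, Syt12 2.47 and Cyp2b10 3.40, and among lost fetal rises Strip2 -1.69, Pck1 -1.21, Zfp395 -1.17, Alas1 -0.84, Angptl4 -0.65, Plin1 -0.63 and Slc25a42 -0.61. Genes that turned from lower to higher gave Tef 0.73, Klf9 1.12, Setd7 1.22, Tead1 1.34, Gk 1.65 and Slc40a1 1.89, and those that turned from higher to lower gave Trmt9b -1.52, Rab30 -1.50, Angpt1 -1.46, Myo5b -1.35, Amn1 -1.22, Sox5 -1.12 and Tenm4 -1.11. Scd1, which persisted, gave 0.65. Genes with an adult effect alone gave Dusp1 1.30, Fbxo32 1.47, Nnmt 1.60, Tbx15 1.97, Slc25a12 2.21, Ttll7 2.43, Sptb 3.58, Usp13 3.94, Myo18b 4.22, Fbxo40 4.29 and Padi2 5.10 among those higher in the adult, and Insig1, lower there, gave -0.96. Genes called in the difference alone gave Smim19 -1.38, Med12l -0.97, Dapk1 -0.87, Ntrk3 -0.85, Deptor -0.75, Tmem260 -0.63, Glod4 -0.59, Ndrg2 0.64, Atp11a 0.74 and Ifi27l2a 1.76. In the muscle lists the values were Tpm2 3.75, Tnnt3 4.31, Ckm 4.57, Mylk4 4.65, Atp2a1 4.88, Myot 4.89, Ryr1 5.01, Ckmt2 5.43, Mylk2 6.21 and Lmod2 7.06, the last 3 as fitted values that depend on the prior count because their adult control libraries were near 0.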

How the results depend on the processing

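In the order difference, fetal effect, adult effect, persisted, lost and turned, they were 186, 236, 231, 4, 46 and 34. Without a filter on low counts they were 674, 617, 772, 72, 154 and 84, and with all 18 libraries 24, 14, 142, 0, 5 and 2. DESeq2 gave 355, 394, 285, 6, 109 and 47, and limma voom with a weight per age 87, 508, 38, 2, 34 and 41. Each age fitted alone called 604 fetal and 89 adult genes, with 6 persisting, 58 lost and 38 turned (1, 44 and 25 shared with the counts above). The biological coefficient of variation was 8.98% in the fetal and 19.6% in the adult libraries alone, against 14.7% together. Among the named genes that lost their adult call in the adults alone were Fasn and Insig1 (edgeR adjusted p = 0.226 and 0.0929). With the contractile list mean as covariate the counts were 7, 128, 3, 1, 0 and 2, and the adult effect of Txlnb reversed to -0.04. With the muscle lists left out before scaling, chosen after seeing the data, they were 110, 259, 102, 2, 38 and 35. Scaling by relative log expression within edgeR, the unstranded column and leaving out mt-Rnr1 and mt-Rnr2 moved no count by over 1.5 times.

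The share of called genes that were higher moved from 74.5% to 97.9% (18 libraries), 93.3% (adults alone) and 39.5% (voom) in the adult effect. For the difference it moved from 58.1% to 91.7%, 69.5% (replicate block), 47.1% (voom) and 42.9% (muscle covariate). In the fetal effect it moved from 34.7% to 48.1% without a filter and 21.4% with 18 libraries. The adult share was 84.7% with the replicate block.

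With the replicate number as a block the counts were 105, 114, 170, 2, 20 and 22. Of the 6 same-number pairs within an age, 0 had deviations correlated above 0.1 (-0.46 to 0.09). In the fetus the same-number pairs gave 0.07, 0.09 and 0.05 and the other pairs -0.06 to -0.01. Adult control replicate 3 with adult fish oil replicate 2, which its source name numbers 3, gave 0.48. Adult control replicate 2 with adult fish oil replicate 3 gave 0.27, and adult control replicate 1 with that library 0.3. Because the adult numbering is itself uncertain, the adult values cannot decide whether same-numbered samples share more than a number. For the fetal libraries, whose values were small, this was not tested.

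Leaving out 1 library at a time gave 31 to 320 differences, 59 to 333 fetal and 133 to 297 adult genes, 1 to 12 persisting, 8 to 62 lost and 10 to 43 turned. The difference count moved by over 1.5 times without fetal control replicates 1, 2 or 3 (45, 63 and 99), fetal fish oil replicates 1, 2 or 3 (66, 87 and 82), adult control replicates 1, 2 or 3 (42, 31 and 111) and adult fish oil replicate 3 (320). Fetal calls were 69, 59 and 138 without the control and 80, 131 and 76 without the fish oil replicates, and 157 without adult control replicate 2. Adult calls were 133, 137 and 153 without adult control replicates 1 or 2 or adult fish oil replicate 1. For the named genes 2321 of 3106 values kept direction and call, 784 kept direction alone and 1 reversed. The 3 adult control libraries together held 76 counts of Mt2 and 142 of Hmox1, and their depth limits the adult effects of such low genes.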

Other observations

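Erythroid genes had a median effect of 0.01 in the fetus and -0.42 in the adult (14 tested), with 1 called higher and 1 lower in the fetus and 2 higher and 1 lower in the adult. Fibroblast and matrix genes had a median effect of -0.07 in the fetus and 0.18 in the adult (31 tested, 24 negative then 24 positive, 0 and 1 called). Of all 13503 genes tested, 6693 were negative in the fetus and 6199 positive in the adult. Macrophage and leukocyte genes had -0.25 and 0.09 (29 tested, 0 called at either age), endothelial genes -0.10 and -0.07 (22 tested, 0 called) and white adipocyte genes 0.01 and 0.12 (16 tested, 0 called). Genes of the unfolded protein and integrated stress response had a median of -0.12 in the fetus and 0.08 in the adult. Of their 32 differences 24 were positive and none called, where 6539 of all 13503 were positive. Nuclear genes of oxidative phosphorylation, 70 tested, had a median of -0.04 at both ages and no call.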
